A study of Mus musculus with 4 samples.

Results

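The genes described here encode the main non-collagen proteins of the basement membrane: the laminin chains Lama2, Lama4, Lama5, Lamb1, Lamb2 and Lamc1, the nidogens Nid1 and Nid2, perlecan (Hspg2) and nephronectin (Npnt). They were chosen by name, as every probe set that the platform annotation pairs with exactly 1 of these symbols. That gave 10 genes with 24 probe sets, of 18193 genes and 45101 probe sets in all. Expression was measured on Affymetrix arrays in whole aortas of 6-week-old mice with a smooth-muscle-specific deletion of Smad4 (Smad4-KO) and of their wild-type littermates (WT), with 2 arrays per genotype. For an array, 3 to 5 vessels were pooled and 400 ng of their RNA labelled, and the arrays of each genotype are named replicate 1 and replicate 2. The labels do not name the promoter that drives the deletion, the deleted part of the gene or the strain. The deletion is aimed at smooth muscle only, so the other cells of the vessel are not its target, and each value is an average over pooled animals.

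The basement membrane is the thin matrix sheet that surrounds each smooth muscle cell of the aortic wall and underlies its endothelium. Laminins are heterotrimers of an alpha, a beta and a gamma chain that polymerise at the cell surface, held there by integrins and dystroglycan. Nidogens and perlecan link the laminin sheet to the network of type IV collagen, and nephronectin is a secreted ligand of the integrin alpha8 beta1. Smad4 joins the Smad proteins that TGF-beta and BMP receptors activate and takes part in their action on target genes.

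The start regions of 3 of the genes are shown because they stand for the patterns described below: Npnt, which fell in Smad4-KO, and the paired beta chains Lamb2 and Lamb1, whose differences had opposite signs. Each sequence is the 250 bases before a start site in RefSeq (build GRCm38.p6), written 5′ to 3′ on the strand of the gene. Capitals mark the letters AGAC, the short box that Smad proteins bind, on either strand (GTCT on the strand shown).
Npnt (chr3:132950292-132950541, minus strand): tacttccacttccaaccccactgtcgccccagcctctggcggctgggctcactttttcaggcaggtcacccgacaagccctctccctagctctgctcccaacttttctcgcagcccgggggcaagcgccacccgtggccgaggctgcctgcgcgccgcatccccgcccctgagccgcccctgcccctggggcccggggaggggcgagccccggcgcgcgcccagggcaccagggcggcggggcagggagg
Lamb2 (chr9:108479612-108479861, plus strand): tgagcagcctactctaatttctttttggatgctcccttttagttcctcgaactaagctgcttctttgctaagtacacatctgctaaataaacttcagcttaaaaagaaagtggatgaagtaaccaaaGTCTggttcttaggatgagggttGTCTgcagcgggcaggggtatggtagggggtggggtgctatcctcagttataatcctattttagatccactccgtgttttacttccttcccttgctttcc
Lamb1 (chr12:31265043-31265292, plus strand): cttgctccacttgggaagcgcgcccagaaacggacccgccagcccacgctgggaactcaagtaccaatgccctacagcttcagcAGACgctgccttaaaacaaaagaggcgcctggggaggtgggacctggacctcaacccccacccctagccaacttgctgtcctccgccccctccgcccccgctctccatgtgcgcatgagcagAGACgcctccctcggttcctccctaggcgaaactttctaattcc
RefSeq windows were matched for 7 of the 10 genes, with 8 windows because Npnt has 2 starts, and Lama4, Lamc1 and Nid2 were not matched. The Npnt window shown held 0 AGAC matches and that of its other start held 1. Lamb2 and Lamb1 held 2 each, Hspg2 held 4, and Lama2, Lama5 and Nid1 held 1 each. Over all 32851 windows of the same length, 82.9% held at least 1 match, so most start regions of the genome hold the box. The palindrome GTCTAGAC was in 0.167% of all windows and TGAGTCA, the AP-1 site, in 4.46%, and neither was in a window of these genes. The palindrome GGCGCC, in 9.59% of all windows, occurred once each in Lama5, Lamb1 and Hspg2. The CArG box, the site of serum response factor, was in 1.47% of all windows and occurred once in Lama2. All motifs were searched on both strands, these searches are descriptions, and a window without a match says nothing about binding elsewhere.

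Several measures of the whole series bear on what follows. Array medians lay between 111 and 137. For the spiked-in Dap RNA, a control of labelling, signal at the 3′ end over that at the 5′ end was 10.02 and 14.1 on WT replicate 1 and Smad4-KO replicate 2, against 2.96 and 3.62 on WT replicate 2 and Smad4-KO replicate 1, so each labelling level holds 1 array of each genotype. Smad4 itself read 4394 and 3819 in WT, against 2676 and 3580 in Smad4-KO. The log2 difference, -0.40 ± 0.32 (standard error), did not pass the test (limma, adjusted p = 0.626). The vessels carried smooth muscle markers on every array, with summed signals of 189279 and 216755 in WT, against 79793 and 96779 in Smad4-KO. Of 12 such markers 6 were called lower, led by Synpo2 (-2.96), Cnn1 (-2.58) and Lmod1 (-2.55), which encode proteins of the contractile apparatus. Summed macrophage markers read 10768 to 16495 in WT and 70133 to 96940.5 in Smad4-KO (9 of 12 called higher, among them Mpeg1 at 4.50), and nerve cell markers 1364 to 1445 and 29516 to 39117 (11 of 11 tested called higher, among them Snap25 at 5.95). Schwann cell markers read 11399 to 12035 and 14680.3 to 16201 (3 of 7 called higher, Ngfr at 4.14, Cnp at 2.05 and Mbp at 1.99), but these markers did not all lie on the same side: Sox10 (-0.74) and Pmp22 (-0.34) were below WT on both Smad4-KO arrays, while S100b (0.58) and Erbb3 (1.44) were above it, and none of these 4 passed. Of endothelial (12 tested), fibroblast (11), fat (7) and skeletal muscle markers (6) none passed in limma (0 calls), while 2, 0, 1 and 2 had an unadjusted p under 0.05. Endothelial sums were 13592 to 17046.5 in WT and 11065 to 19565 in Smad4-KO, fibroblast sums 154107 to 155070 and 116398 to 155765, and fat sums 30478 to 68317 and 31402 to 63378. Skeletal muscle markers summed to 609 and 828 in WT, 1085 on Smad4-KO replicate 1 and 11634 on Smad4-KO replicate 2. No marker was listed at 0. The part of these cell types in the results below was not tested.

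The comparison asks which transcripts of basement membrane proteins change when aortic smooth muscle loses Smad4. Npnt was the 1 member called, lower in Smad4-KO by 9.93-fold. The 3 laminin alpha chains, Lamb2 and, narrowly, Lamc1 lay below WT on both Smad4-KO arrays, while Lamb1, Nid1 and Nid2 lay above it. None of these passed the test. A gene was represented by its brightest probe set, differences are on the log2 scale of signal (Smad4-KO minus WT), ± gives the standard error from limma over 2 and 2 arrays, and a call is a Benjamini-Hochberg adjusted p under 0.05 over the 13645 genes above a filter on low signal. All 10 members passed that filter.

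Over all genes tested, 6.31% were called, 1.39% lower and 4.92% higher in Smad4-KO. Of the 10 members limma called 1 lower and 0 higher, and at an unadjusted p under 0.05 there were 4 lower and 1 higher. The Smad4-KO arrays lay apart from the WT arrays for 6 members on the lower side and 3 on the higher, against backgrounds of 21.4% and 25.9% of all genes, and 47.3% for either side. With 10 genes, 1 call is close to the 6.31% of all genes called in either direction. It was on the lower side, where the share was 1.39%, but 1 gene is too few to read as an excess. The median difference of the members was -0.78, and -0.74 without Npnt, beside -0.01 over all genes tested. In bulk tissue, fewer cells of a type and less RNA per cell cannot be told apart.

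**Figure D1:**
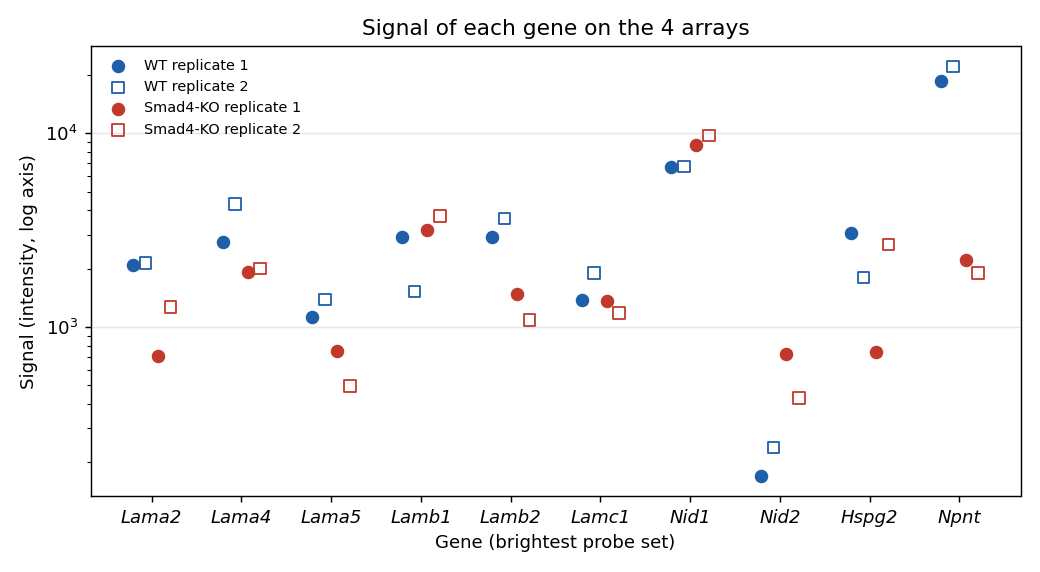
Signal of the brightest probe set of each gene (vertical axis, intensity, log scale) on the 2 WT arrays (blue) and the 2 Smad4-KO arrays (red), with replicate 1 filled and replicate 2 open. Npnt shows the widest gap, 18675 and 22200.4 against 2213 and 1899, and Hspg2 is the gene whose genotypes overlap.

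**Figure D2:**
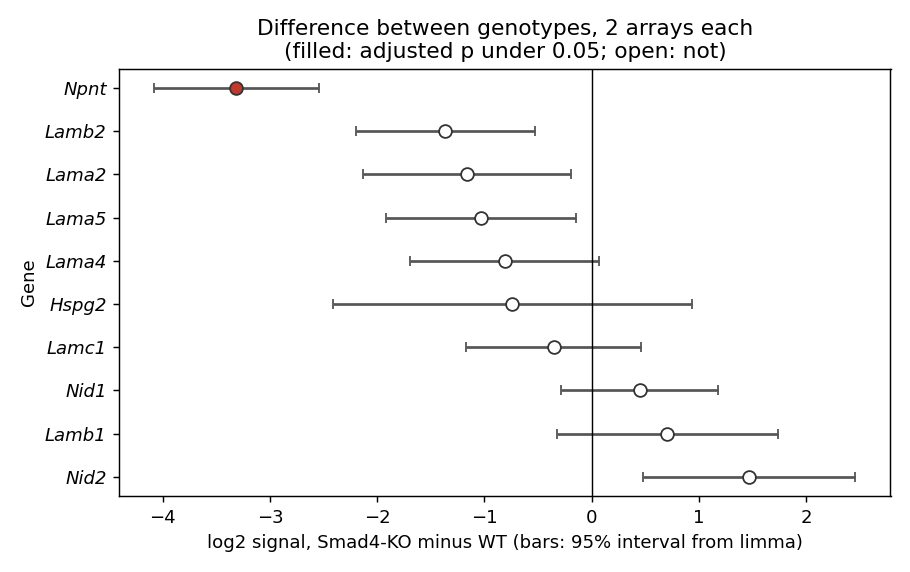
Log2 difference of each gene, Smad4-KO minus WT (horizontal axis), with its 95% interval from limma over 2 and 2 arrays. Npnt, filled, is the member with an adjusted p under 0.05, and the intervals of Lama4, Lamc1, Hspg2, Nid1 and Lamb1 include 0.

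Nephronectin is a matrix protein with EGF-like repeats and an integrin-binding stretch, first known from kidney development. Its brightest probe set (1452106_at) read 18675 and 22200.4 in WT, against 2213 and 1899 in Smad4-KO. The genotypes were far apart compared with the gap between replicates. The difference was -3.31 ± 0.31 (95% interval -4.08 to -2.55; limma, adjusted p = 0.0125), the 20th lowest of the 13645 genes tested. Between arrays of the same labelling level it was -3.30 (high 3′ to 5′ ratio) and -3.33 (low), so it was as large within each level. The call ended without WT replicate 2 (-3.19, adjusted p = 0.0663), with a block for the labelling level (adjusted p = 0.0557) and with no filter on low signal (adjusted p = 0.0725), while over 14 alternatives the adjusted p ran from 0.00112 to 0.0725 and the difference from -3.47 to -2.91.

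Npnt has 5 probe sets, and the genotypes were apart on each of them, with Smad4-KO the lower. Probe set 1452107_s_at read 11349 and 10468 in WT, against 928 and 1214 in Smad4-KO, a difference of -3.36. Probe set 1426561_a_at read 760.2 and 894 in WT, against 124 and 139 in Smad4-KO, a difference of -2.65. On the dimmer pair the gaps between replicates were wider: 1426560_a_at read 403 and 592 in WT, against 105 and 163 in Smad4-KO (-1.90), and 1421429_a_at read 7.77 and 143 in WT, against 2.74 and 4.04 in Smad4-KO, below the filter on signal. When every probe set was fitted by itself, 0.782% of 26209 probe sets were called, 0.0801% lower and 0.702% higher. Of the 24 member probe sets 19 passed the filter, and 2 of these were called lower, 1452106_at and 1452107_s_at of Npnt (limma, adjusted p = 0.0473 for each). Both calls ended with the replicate block, the labelling block, quantile normalization, no filter and each array left out in turn, where 1452107_s_at had an adjusted p of 0.0536 to 0.256. Probe set 1426561_a_at just missed (limma, adjusted p = 0.0527). Limma called 0 higher, and 11 had an unadjusted p under 0.05. Over all 24 the genotypes were apart with Smad4-KO lower for 14 and higher for 4, and overlapped for 6. The 24 include 5 below the filter, of which 1459614_at of Lama5, 1423886_at of Lamc1 and 1421429_a_at of Npnt count as lower. Over the 26209 probe sets tested, Smad4-KO was apart on the lower side for 20.1%, on the higher side for 22% and on either for 42.2%. These shares leave out probe sets below the filter, so the counts over 24 are not on the same footing. In the Affymetrix naming, the ending _a_at marks probes shared by transcripts of 1 gene and _s_at probes that can also match other transcripts.

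**Figure D3:**
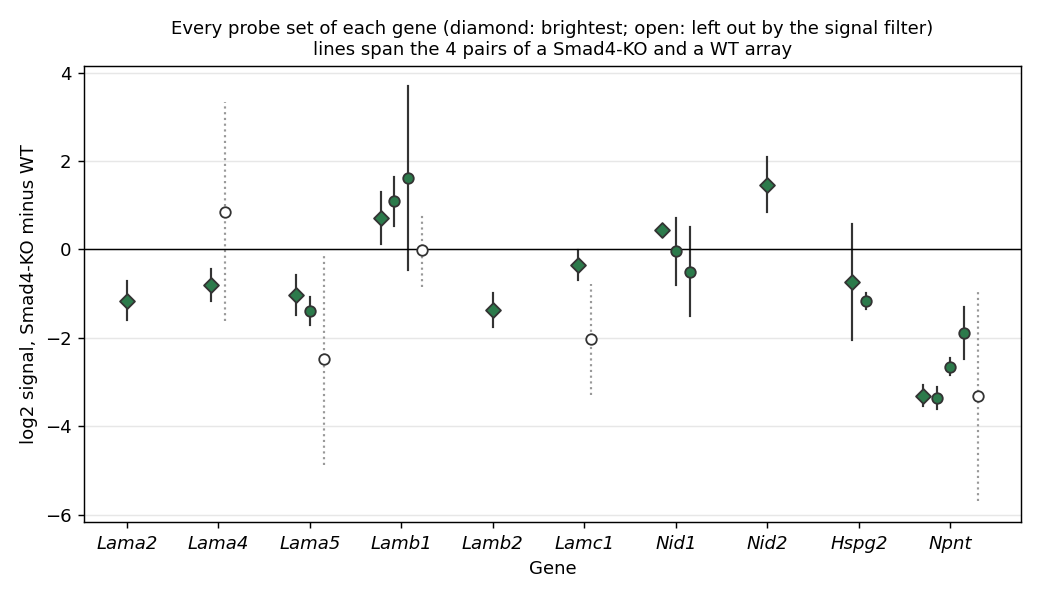
Log2 difference, Smad4-KO minus WT (vertical axis), of all 24 probe sets by gene, where lines span the 4 pairs of a Smad4-KO and a WT array, diamonds mark the brightest probe set and open symbols the 5 probe sets left out by the filter on signal. All 5 Npnt probe sets lie below 0, while those of Nid1 lie on both sides of it.

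The genes whose profile over the 4 arrays was nearest to that of Npnt, by Euclidean distance of log2 signals centred on their mean, were Lratd1 (distance 0.11), Thsd4 (0.24), which promotes fibrillin microfibrils, and Sh3bgr (0.25). Their differences were -3.27, -3.21 and -3.46, near that of Npnt because the genes were chosen by this distance. Lratd1 was dim in Smad4-KO, at 59.1 and 51.2. The likeness rests on 4 arrays, and 13645 genes were compared.

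The laminin alpha chains decide which receptors a laminin binds. Lama2, the alpha chain of the laminins of muscle and peripheral nerve, read 2088 and 2140.3 in WT, against 704 and 1272 in Smad4-KO. Both arrays of Smad4-KO were lower, and the difference of -1.16 ± 0.39 (95% interval -2.13 to -0.19) did not pass (limma, adjusted p = 0.180). The higher of the Smad4-KO values came from replicate 2, the array on which skeletal muscle markers summed to 11634 against 1085 on replicate 1. Whether that RNA adds to the Lama2 value was not tested. Without Smad4-KO replicate 1 the difference was -0.73 (adjusted p = 0.397), and without Smad4-KO replicate 2 it was -1.59 (0.0838).

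Lama4, the alpha chain of laminins of blood vessel endothelium and smooth muscle, read 2732 and 4328 in WT, against 1913 and 2002 in Smad4-KO. The Smad4-KO arrays were lower and close together, and the WT arrays were further apart. The difference was -0.81 ± 0.35 (95% interval -1.69 to 0.07; limma, adjusted p = 0.299). A second probe set of Lama4 read 2.94 and 72.4 in WT, against 23.6 and 29.5 in Smad4-KO, below the filter, with the genotypes overlapping. When both probe sets were averaged, the Lama4 difference was 0.021, and without WT replicate 2 it was -0.48. Lama5, the alpha chain of laminin-511, read 1126 and 1388 in WT, against 754 and 496 in Smad4-KO, so both Smad4-KO arrays were lower (-1.03 ± 0.35; 95% interval -1.92 to -0.15; limma, adjusted p = 0.189). Its second probe set, 1427010_s_at, read 1045 and 1309 in WT, against 493 and 403 in Smad4-KO, again lower on both, with a difference of -1.39 (limma over all probe sets, adjusted p = 0.167). The third read 70.3 and 109 in WT, against 3.70 and 66.2 in Smad4-KO, below the filter, and the mean of the Lama5 probe sets gave -1.64.

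The beta chains had differences of opposite sign. Lamb2, the beta chain of laminins at the neuromuscular junction, in the kidney glomerulus and in vessel walls, read 2916 and 3638 in WT, against 1478 and 1083 in Smad4-KO. Both arrays of Smad4-KO were lower by more than the gap between replicates, at -1.36 ± 0.33 (95% interval -2.20 to -0.53), and the test was not passed (limma, adjusted p = 0.0843). Within the labelling levels the difference was -1.43 (high) and -1.30 (low). Over 14 alternatives its adjusted p lay between 0.0527 and 0.386.

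Lamb1, the beta chain of laminin-111 and laminin-511, read 2926 and 1525 in WT, against 3174 and 3739 in Smad4-KO. The Smad4-KO arrays were higher, but WT replicate 1 lay close to them, and the difference of 0.71 ± 0.41 (95% interval -0.32 to 1.74) did not pass (limma, adjusted p = 0.465). It was 0.24 without WT replicate 2 and 1.18 without WT replicate 1. A dimmer Lamb1 probe set, 1424113_at, read 256 and 397 in WT, against 803 and 573 in Smad4-KO, with the genotypes apart and a difference of 1.09 (limma over all probe sets, adjusted p = 0.339). The remaining Lamb1 probe sets had overlapping genotypes: 1451241_at read 18.9 and 127 in WT, against 243 and 92.0 in Smad4-KO, and 1446180_at read between 20.4 and 36.9 on all arrays. Lamc1, the gamma chain common to most laminins, read 1377 and 1897 in WT, against 1356 and 1179 in Smad4-KO. WT replicate 1 and Smad4-KO replicate 1 were nearly equal, and the difference was -0.35 ± 0.33 (95% interval -1.17 to 0.46; limma, adjusted p = 0.691). A dim second probe set of Lamc1, below the filter, read 23.5 and 104 in WT, against 13.7 and 10.6 in Smad4-KO. The size of the Lamc1 difference was therefore poorly fixed: it was -1.20 when both probe sets were averaged, -0.12 without WT replicate 2 and -0.59 without WT replicate 1.

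The genes nearest in profile to Lamb2 were Pla2g6 (distance 0.11), a phospholipase, Msrb3 (0.12), a methionine sulfoxide reductase, and Dusp14 (0.12), a phosphatase. Their differences were -1.30, -1.47 and -1.37, near that of Lamb2 because the genes were chosen by this distance. None of these genes passed (limma, adjusted p = 0.0892, 0.0773 and 0.0912).

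Nidogens bind the gamma1 chain of laminin and type IV collagen. Nid2 read 170.3 and 238 in WT, against 723 and 428 in Smad4-KO. Both arrays of Smad4-KO were above both WT arrays, by 1.47 ± 0.40 (95% interval 0.47 to 2.46), and the test was not passed (limma, adjusted p = 0.109). The difference was 1.33 within the high and 1.60 within the low labelling level. The brightest probe set of Nid1 (1416808_at) read 6746 and 6750.4 in WT, against 8683 and 9743 in Smad4-KO. The replicates were close together and the genotypes apart, but the difference was small, at 0.45 ± 0.29 (95% interval -0.29 to 1.18; limma, adjusted p = 0.529). The dimmer Nid1 probe sets had overlapping genotypes, with 536 and 983 in WT, against 563 and 877 in Smad4-KO for 1448469_at, and 172 and 205 in WT, against 71.6 and 245 in Smad4-KO for 1441519_at. With the mean of the Nid1 probe sets the difference was -0.034, so its direction rests on the brightest.

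Perlecan is a large proteoglycan whose heparan sulphate chains hold growth factors in the matrix. Its probe sets had differences of the same sign, but the gaps between replicates were wider on the brightest. The brightest, 1418670_s_at, read 3067 and 1803 in WT, against 744 and 2665 in Smad4-KO, with overlapping genotypes and a difference of -0.74 ± 0.67 (95% interval -2.41 to 0.93; limma, adjusted p = 0.682). Its higher readings were on WT replicate 1 and Smad4-KO replicate 2, the arrays with 3′ to 5′ ratios of 10.02 and 14.1. The part of labelling in these readings was not tested, and the differences within the labelling levels were -0.20 (high) and -1.28 (low). Probe set 1418669_at read 1399 and 1693 in WT, against 709 and 669 in Smad4-KO. There the replicates were close and both Smad4-KO arrays lower, at -1.16 ± 0.33 (95% interval -2.02 to -0.30; limma over all probe sets, adjusted p = 0.216). Without Smad4-KO replicate 1, the difference of the brightest probe set turned to 0.18.

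Ratios of members on the same array show whether their differences were unequal. The log2 ratio of Lamb1 to Lamb2, taken from its WT mean, was 0.63 and -0.63 in WT, against 1.73 and 2.41 in Smad4-KO. The ratio was higher on both Smad4-KO arrays, by 2.07 or 4.20-fold. Nid1 to Nid2 was lower on both, by -1.02. Lamb1 to Lamc1 (1.06) and Nid1 to Lamc1 (0.80) were higher on both. The ratios among the alpha chains overlapped between genotypes: 0.22 for Lama4 to Lama5, -0.35 for Lama2 to Lama4 and -0.13 for Lama2 to Lama5. For the 4 ratios with genotypes apart, the exact permutation test over arrays (two-sided) gave p = 0.333, the smallest that 2 against 2 arrays allow, and 0.583 adjusted over the 7 ratios. The design cannot show a difference between members at the 0.05 level by that test.

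**Figure D4:**
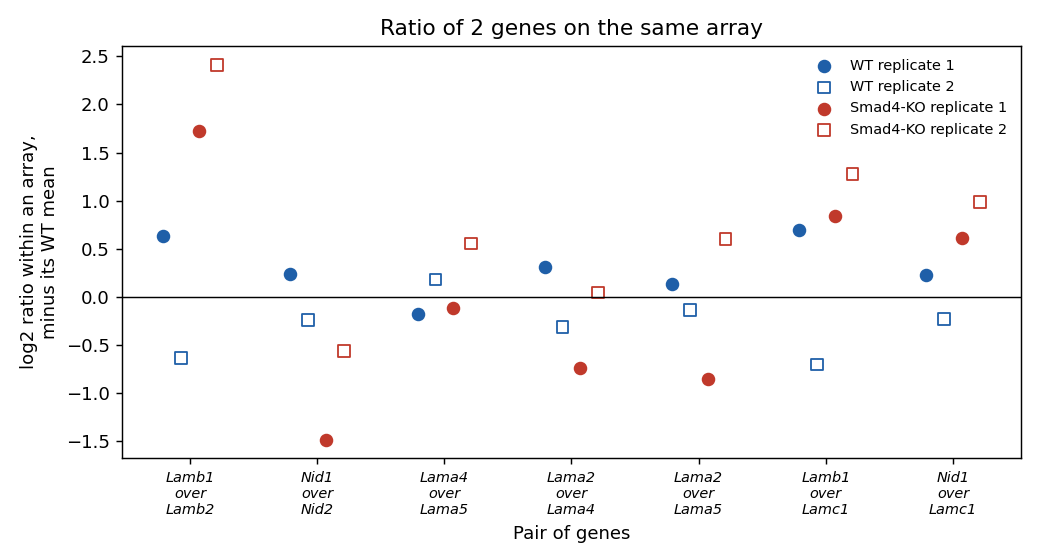
Log2 ratio of 2 genes on the same array minus its WT mean (vertical axis) for 7 pairs, on the 2 WT arrays (blue) and the 2 Smad4-KO arrays (red), replicate 1 filled and replicate 2 open. Lamb1 over Lamb2 is at 1.73 and 2.41 on the Smad4-KO arrays, and the ratios among the alpha chains overlap between genotypes.

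Cells hold laminin and nephronectin through integrins, dystroglycan and syndecans. Itga8, the alpha chain of the nephronectin receptor, read 31718.5 and 40409.6 in WT, against 10984 and 7818 in Smad4-KO. It fell 3.86-fold (-1.95 ± 0.34; limma, adjusted p = 0.0361), in the same direction as its ligand. The call ended under 7 of 14 alternatives, without WT replicate 1 (adjusted p = 0.111), without WT replicate 2 (0.201) and without Smad4-KO replicate 2 (0.080) among them, and the difference stayed between -2.50 and -1.70. Of 21 genes tested for receptors and their partner proteins, such as Dmd, Utrn and Cd151, 2 were called lower, at a background of 1.39%. On the higher side 2 were called, at a background of 4.92%. The median was -0.53, with 10 at an unadjusted p under 0.05. The other call on the lower side was Itgb3, a beta chain of vitronectin receptors (-1.63, limma, adjusted p = 0.0382), named after its value was seen.

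Itga6, an alpha chain of laminin receptors, rose 3.64-fold, from 833 and 743 in WT to 2974 and 2752 in Smad4-KO (1.86 ± 0.29; limma, adjusted p = 0.0285). Sdc3, a heparan sulphate proteoglycan abundant in nervous tissue, rose 4.11-fold, from 428 and 499 to 1654 and 2180 (2.04 ± 0.32; limma, adjusted p = 0.0279). Both Smad4-KO arrays stood clear of WT for these genes. On the same arrays nerve cell markers were higher (29516 to 39117, against 1364 to 1445), as were macrophage markers (70133 to 96940.5, against 10768 to 16495). The part of these cells was not tested. Without either WT array the calls ended (adjusted p = 0.113 and 0.173 for Itga6, 0.129 and 0.133 for Sdc3), as they did without Smad4-KO replicate 2 (0.0537 and 0.0613). Itga6 was also not called without Smad4-KO replicate 1 (0.0648). With the mean of its probe sets Sdc3 stood at 0.92 (adjusted p = 0.255).

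**Figure D5:**
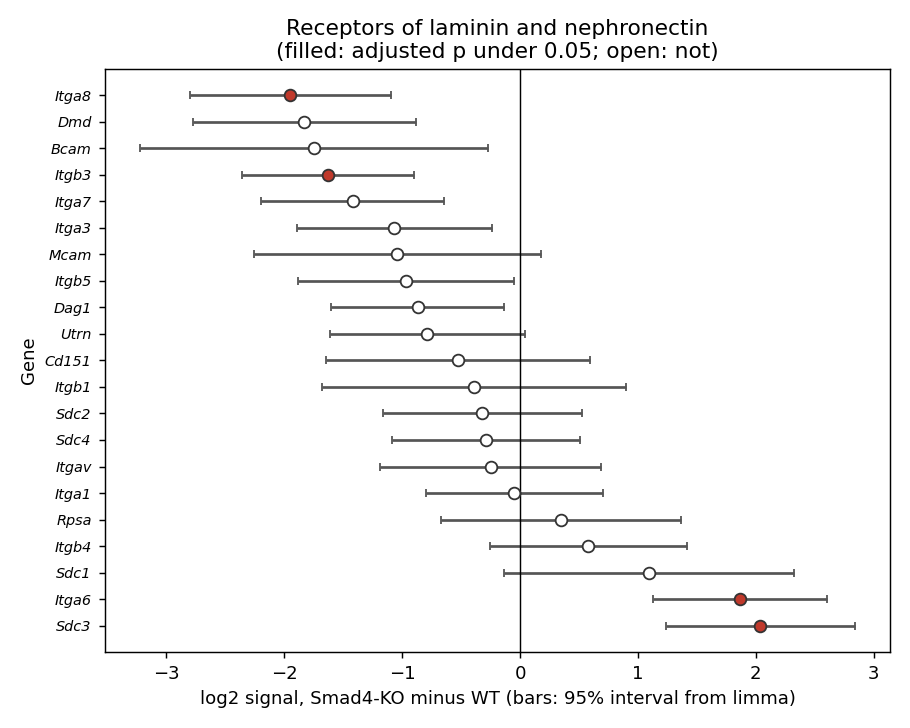
Log2 difference, Smad4-KO minus WT (horizontal axis), of 21 genes for receptors of laminin and nephronectin and their partner proteins, with 95% intervals from limma. Itga8 and Itgb3 lie on the lower side and Itga6 and Sdc3 on the higher among those with an adjusted p under 0.05, shown filled.

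Companion genes of the basement membrane were counted in the same fit. Of the laminin chains outside the 10 members, 4 of 5 were on the array with 1 symbol and 2 could be tested. Limma called 0 of these, and the unadjusted p was under 0.05 for 1, Lamc3, a gamma chain (161 and 322 in WT, 80.4 and 49.1 in Smad4-KO, -1.86, adjusted p = 0.0914), and Lama3 had a difference of 0.16 (adjusted p = 0.881). Among 8 basement membrane collagens 5 were called lower and 0 higher, beside 1.39% and 4.92% of all genes, with a median of -2.06. Chains of type IV collagen were unequal. Col4a1 (19559 and 20330 in WT, 13094 and 18109 in Smad4-KO) and Col4a2 (7735 and 8805 in WT, 6593 and 7317 in Smad4-KO) were not called. Their differences were -0.37 and -0.25 (limma, adjusted p = 0.665 and 0.772). Col4a5, brighter in WT than Col4a2, was called lower (11018 and 15272 in WT, 3157 and 3182 in Smad4-KO, -2.03, limma, adjusted p = 0.0285). So was Col18a1, outside type IV (13918 and 15583 in WT, 3285 and 3642 in Smad4-KO, -2.09, limma, adjusted p = 0.0219). The largest called differences were those of the type IV chains Col4a6 (-3.55), Col4a4 (-2.98) and Col4a3 (-2.48), which were dimmer in WT. Without WT replicate 2 the fit called 0 of all genes tested (lowest adjusted p = 0.0552, with 1791 at an unadjusted p under 0.05), and the adjusted p of these 3 was 0.0658, 0.177 and 0.0998. Without WT replicate 1, Col4a4 (0.116) and Col4a3 (0.0764) were not called, and all 3 also lost the call with the labelling block and with no filter. When probe sets were averaged, Col4a4 (0.102) and Col4a3 (0.0966) lost it and Col4a6 did not (0.0391).

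Among 13 other basement membrane proteins tested, 1 was called lower and 0 higher, beside 1.39% and 4.92% of all genes, and the median was -0.14. The call was Smoc1, a secreted calcium-binding protein that interferes with BMP signalling, which read 4443 and 6027 in WT, against 1088 and 743 in Smad4-KO. It fell 5.76-fold (-2.53 ± 0.36; limma, adjusted p = 0.0219), a call that ended without WT replicate 1 (adjusted p = 0.0722) or WT replicate 2 (0.128). Of 7 enzymes that glycosylate dystroglycan for laminin binding, limma called 0, and the unadjusted p was under 0.05 for 1: B3galnt2, at 1303 and 2139 in WT, against 582 and 372 in Smad4-KO (-1.84, adjusted p = 0.0662). Pomgnt1 had a difference of -0.42 (adjusted p = 0.565).

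Inside the cell, integrins connect to focal adhesions. Of 11 focal adhesion genes tested 3 were called lower and 0 higher, with a median of -1.26, beside 1.39% of all genes called lower and 4.92% higher. Lims2, an adaptor of integrin-linked kinase, fell 4.26-fold (-2.09 ± 0.30; limma, adjusted p = 0.0225), Tns1, a tensin, 3.23-fold (-1.69 ± 0.31; limma, adjusted p = 0.0394) and Tgfb1i1, a paxillin relative, 2.79-fold (-1.48 ± 0.29; limma, adjusted p = 0.0494). Smooth muscle markers were lower on the same arrays (79793 and 96779, against 189279 and 216755), and their part was not tested. The calls of all 3 ended without either WT array.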

How the data were processed

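The authors deposited an intensity for every probe set of the 4 arrays, not on a log scale. Affymetrix Expression Console and RMA are named, without versions, per the submitters' processing notes. The values lack the form RMA gives: they are linear, their distributions differ between arrays, and all 4 arrays share a trimmed mean of 500 (2% of probe sets left out at either end). Neither detection calls nor the build are given in the sources used here.

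Of 45101 probe sets, 34945 are paired with 1 symbol and name 18193 genes; 932 with several symbols, 9160 with none and 64 controls were left out. Values were taken to log2. The probe set of highest mean stood for its gene, and genes below the 25th percentile of that mean (5.64 on the log2 scale) were left out. Genotypes were compared with limma 3.58.1 in R 4.3.3 (lmFit, eBayes, genotype as the only term, two-sided), with Benjamini-Hochberg adjustment over all genes, and again over 26209 single probe sets above their own 25th percentile. The procedure was tested on simulated data. The labels name the arrays as biological replicates, so p-values measure the spread between pools, and 2 arrays per genotype limit the precision.

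The 10 members, the lists of companion and marker genes and the naming rule were chosen with earlier results of these data known. The rule names the members, Smad4, up to 3 called genes per list by size of difference (otherwise the 2 of lowest unadjusted p), and the 3 genes nearest in profile to the 2 members of lowest p. For cell type lists mainly sums and counts are printed. Outside the rule, values are also given for Itgb3, Col4a1, Col4a2, Col4a5, Col18a1 and the Schwann cell markers Sox10, Pmp22, S100b and Erbb3. The alternatives were a replicate block, a block for the labelling level, quantile normalization, median centring, other filters, other eBayes settings, signals under 64 raised to 64, an adjusted p of 0.10, the mean of probe sets, and leaving out each array. The deviations of same-numbered replicates had a correlation over genes of -0.01. For arrays of the same labelling level it is the same number with its sign reversed (0.01), so it is not a second check. Shared effects of replicate and of labelling would pull this correlation in opposite directions, so a value near 0 excludes neither. With 2 arrays per genotype it also cannot exclude that arrays were paired. Promoter windows came from RefSeq; protein sequences were not used here.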

Additional observations from a re-analysis of the deposited data

How the results depend on the processing

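Over 14 alternatives for each of the 10 genes, 133 of 140 values kept their direction and their side of the threshold, 3 lost the call (Npnt, given above), 1 gained it (Lamb2 at an adjusted p of 0.10) and 3 turned: Hspg2 without Smad4-KO replicate 1 (0.18, in a range of -1.66 to 0.18 without each array), and with the mean of probe sets Lama4 (0.021) and Nid1 (-0.034). The dimmer Nid1 probe sets turned too, 1448469_at without WT replicate 2 (0.39) or Smad4-KO replicate 1 (0.27; range -0.48 to 0.39) and 1441519_at without Smad4-KO replicate 1 (0.39; range -1.39 to 0.39), as did Lama3 without Smad4-KO replicate 1 (-0.059; range -0.059 to 0.37) and Lep, a fat cell marker, without Smad4-KO replicate 2 (0.47; range -4.04 to 0.47). The cause was not tested. The median of the members stayed between -1.05 and -0.59. Median centring moved the median of all genes by -0.15, and relative to that shift no member changed direction.

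The count of members called lower was 0 with the block for the labelling level and with no filter, and 2 when an adjusted p of 0.10 was allowed. Without each array in turn it was 0 to 1, and the count called higher stayed at 0. Member probe sets called lower went from 2 to 0 with the replicate block, the labelling block, quantile normalization, no filter and without each array in turn (0 to 0). With the replicate block 286 genes were lower and 1035 higher, against 189 and 672, and Npnt kept its call. With the labelling block and with no filter limma called 0 lower and 0 higher, with 2658 and 2788 genes at an unadjusted p under 0.05. At an adjusted p of 0.10 the counts were 346 and 1057, and with the mean of probe sets 91 and 427. Leaving out each array gave 0 to 176 lower and 0 to 632 higher. Without WT replicate 1 they were 18 and 252. Without WT replicate 2 they were 0 and 0, with 1791 genes at an unadjusted p under 0.05; the genotype with 1 array is then assumed to vary like the other. Of 469 values of named companion and marker genes, 348 kept direction and side, 106 lost the call and 13 gained it. Probe sets under the filter on signal give no test.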
